A study of Mus musculus with 20 samples.

Results

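Accessible chromatin was compared between C2C12 cells without Setd2 and wild-type cells at day 1 in control medium. The comparison used 4 of the 20 ATAC-seq peak lists of the study, 2 from wild-type (WT) cells and 2 from Setd2 knockout (KO) cells. Overlapping peaks of the 4 lists (1 bp or more in common) were joined, which gave 81541 regions. A region was called gained when both KO lists and neither WT list held a peak in it, and lost when both WT lists and neither KO list did. By this rule 4378 regions were gained, 5.37% of all regions, and 5252 were lost, 6.44%. Another 29558 regions, 36.2%, were held by all 4 lists and are called shared below. The calls themselves defined the sets, so these counts are descriptions and carry no test.

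C2C12 is a mouse myoblast line that leaves the cell cycle and fuses into myotubes when growth factors are withdrawn. All 4 libraries were from day 1 (D1) in control medium (CTL), and the study also holds libraries from day 0 (D0), day 5 (D5) and methionine-restricted medium (MR). The WT libraries were replicates 1 and 2. The KO libraries came from 2 separate knockout lines, called line 1 and line 2, with 1 library each, and any difference between the lines is part of the spread between them. Whether the WT replicates came from separate cultures is not given in the sources used here, and any p-value then measures only the spread between these samples, which may be technical.

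Setd2 is the enzyme that places the third methyl group on lysine 36 of histone H3 in mammals. It travels with the elongating RNA polymerase II, so the mark lies over the bodies of transcribed genes, where it is read by DNA methyltransferases and deacetylase complexes and is known to limit initiation inside genes. In myoblasts, the bHLH factors Myod1 and Myog bind E-boxes, short motifs such as CAGCTG, and open the regulatory regions of muscle genes as differentiation starts. ATAC-seq reads the accessible part of such regions through the insertion of adapters by a transposase.

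The promoters below are windows that a region of one of the sets overlapped in whole or in part. Each is the 250 bases before a RefSeq transcription start (assembly GRCm38.p6) and overlapped a lost region (Myog, Acta1, Tnnt2, Ckm and Mybph) or a gained region (Ctla2b and Syt1). Capitals mark CAGCTG, the E-box preferred by myogenic factors, or TGANTCA, the binding sequence of AP-1, and each sequence reads 5′ to 3′ on the strand of the gene. Myog lies at chr1:134289754-134290003, plus strand, Acta1 at chr8:123894776-123895025, minus strand, and Tnnt2 at chr1:135836084-135836333, plus strand. Ckm lies at chr7:19410844-19411093, plus strand, and Mybph at chr1:134193198-134193447, plus strand. Ctla2b lies at chr13:60897448-60897697, minus strand, and Syt1 at chr10:109010976-109011225, minus strand.
Myog: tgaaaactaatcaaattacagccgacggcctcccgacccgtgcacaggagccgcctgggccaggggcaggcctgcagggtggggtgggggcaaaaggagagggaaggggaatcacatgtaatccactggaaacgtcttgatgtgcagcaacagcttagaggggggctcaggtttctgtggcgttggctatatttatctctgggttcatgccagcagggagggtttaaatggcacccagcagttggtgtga
Acta1: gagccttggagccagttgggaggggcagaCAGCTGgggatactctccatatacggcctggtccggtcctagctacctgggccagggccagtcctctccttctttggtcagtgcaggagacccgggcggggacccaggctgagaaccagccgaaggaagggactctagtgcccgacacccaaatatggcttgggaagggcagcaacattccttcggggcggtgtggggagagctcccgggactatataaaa
Tnnt2: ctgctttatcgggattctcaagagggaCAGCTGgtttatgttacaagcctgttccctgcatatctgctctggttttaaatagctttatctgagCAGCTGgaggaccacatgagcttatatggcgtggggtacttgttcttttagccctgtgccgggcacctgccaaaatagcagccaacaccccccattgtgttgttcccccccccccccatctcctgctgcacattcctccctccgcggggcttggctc
Ckm: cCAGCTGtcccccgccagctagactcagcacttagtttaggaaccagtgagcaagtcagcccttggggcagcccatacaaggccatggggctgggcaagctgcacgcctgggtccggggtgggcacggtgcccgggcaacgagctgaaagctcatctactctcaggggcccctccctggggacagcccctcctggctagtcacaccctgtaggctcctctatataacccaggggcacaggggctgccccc
Mybph: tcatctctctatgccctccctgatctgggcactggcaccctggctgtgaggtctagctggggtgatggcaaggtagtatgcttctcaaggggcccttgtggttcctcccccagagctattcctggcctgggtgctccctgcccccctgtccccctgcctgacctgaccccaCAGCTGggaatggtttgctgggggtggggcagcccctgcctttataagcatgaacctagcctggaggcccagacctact
Ctla2b: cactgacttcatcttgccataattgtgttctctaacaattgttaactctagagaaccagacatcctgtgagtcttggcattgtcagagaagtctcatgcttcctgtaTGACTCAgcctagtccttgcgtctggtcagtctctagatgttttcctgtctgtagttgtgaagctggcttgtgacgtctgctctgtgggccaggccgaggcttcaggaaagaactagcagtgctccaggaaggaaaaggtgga
Syt1: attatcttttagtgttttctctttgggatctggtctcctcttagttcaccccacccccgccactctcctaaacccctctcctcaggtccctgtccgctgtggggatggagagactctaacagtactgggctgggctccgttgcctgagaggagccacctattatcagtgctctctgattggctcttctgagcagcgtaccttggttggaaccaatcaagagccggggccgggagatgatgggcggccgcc

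CAGCTG was found in the printed promoters of Acta1, Tnnt2, Ckm and Mybph, and TGANTCA in that of Ctla2b. Neither was found in these windows of Myog and Syt1. The regions covered all 250 bases for Myog, Acta1 and Tnnt2, and 215 for Ctla2b, 178 for Syt1, 108 for Ckm and 81 for Mybph. The marked motifs of Acta1, Tnnt2, Ckm and Ctla2b lay inside the region, while that of Mybph lay outside it. Over all promoters that a lost region overlapped, 42 of 124 (33.9%, 95% Wilson interval 26.1 to 42.6) held CAGCTG. The share was 17 of 128 (13.3%, 8.46 to 20.2) where a gained region overlapped, 11.4% of 8106 promoters under shared regions, and 12.2% of all 21045 promoter windows in the RefSeq table. In 32 of the 42 a CAGCTG lay inside the lost region itself, and in 11 of the 17 inside the gained region. The other E-box searched, CACCTG, was in 24.2% of the promoters under lost regions, 13.3% under gained and 13.02% under shared regions, and in 17.05% of all windows, which is near the lower bound of the interval for lost regions (17.5 to 32.4). GGAATG, the sequence bound by Tead factors, was in 17.7% (12.02 to 25.4), 7.03% and 9.45% of them in the same order, and in 11.6% of all windows. TGANTCA went the other way, with 13.3% (8.46 to 20.2) under gained, 4.84% (2.24 to 10.2) under lost and 3.97% under shared regions, and 6.17% of all windows. TGTGGT, bound by Runx factors, was in 14.1% of promoters under gained, 13.7% under lost and 9.67% under shared regions, and in 12.2% of all windows. CCGCCC, bound by Sp factors, was in 53.1%, 44.4% and 66.1%, and in 43.1% of all windows. The MEF2 motif was in 2 promoters under gained (1.56%) and 5 under lost regions (4.03%, 1.73 to 9.09). It was in 0.938% of promoters under shared regions and in 2.48% of all windows, which lies inside the interval for lost regions. Both strands were searched, neighbouring matches of different motifs may share letters, and a match is a stretch of letters and not a measured binding site. Wilson intervals cover counting error only, and they treat the windows as independent. The 128 promoters under gained regions came from 122 genes, and the 124 under lost regions from 118. Windows of the same gene can overlap, as at Tnni1 for CAGCTG, and related genes stand among those with TGANTCA. The CAGCTG share under lost regions was 23.3% without WT replicate 2 and 21.5% without KO line 1, both settings in which fewer lists have to lack or hold a peak.

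The 4 lists differed little in length by genotype. WT replicates 1 and 2 held 60173 and 45545 peaks, and KO lines 1 and 2 held 61045 and 46664, so the groups overlapped. The mean log2 number of peaks was 0.03 higher in KO (exact two-sided permutation p = 0.667), where 2 lists against 2 cannot give a p under 0.333. The background pileup, used as a measure of depth in fragments per position, was 3.17 and 3.22 in WT, 3.50 in KO line 1 and 2.30 in KO line 2. Line 2 thus had the lowest background of the 4 libraries, which is not a read total. Line 1 had the widest peaks, with a median of 183 bp against 137 to 142 bp in the others. The part of depth and width in the sets was not tested.

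The labels were checked against gene ends. Setd2 itself (chromosome 9, 110532500 to 110618633) was called at an end in all 4 lists, at −log10 q-values of 20.1 and 11.5 (WT) and 27.2 and 13.05 (KO). Open chromatin there says nothing of an edited reading frame, so the genotype labels stay unchecked by these lists. Of 6 myoblast markers, the ends of Myod1, Des, Cdh15 and Itga7 were called in all 4 lists, that of Myog in the WT lists alone, and that of Myf5 in none. The muscle character of the cells was therefore visible in both genotypes. Of the markers of other cell types, adipocyte genes had 3 and 2 of 6 gene ends called in WT and 2 and 3 in KO. Osteoblast or cartilage genes had 1 and 1 of 7 in WT and 2 and 1 in KO, and neural genes 2 and 1 of 7 in WT and 4 and 3 in KO. Endothelial or blood genes had 1 and 0 of 6 in WT and 1 and 1 in KO, and epithelial genes 1 and 1 of 5 in WT and 1 and 0 in KO. Gained regions lay at 4 of the 31 markers of other cell types, Pparg, Alpl, Syt1 and Krt8, and lost ones at Col2a1 and Rbfox3. Over all protein-coding genes, 8.21% had a gained and 11.2% a lost region. The median neural marker was 69.0 kb long, and 11.3% of all genes between 30 and 100 kb had a gained region. These marker counts are therefore a description. Syt1 had 4, of which 2 lay at an end and had −log10 q-values of 40.8 and 8.87 and of 40.07 and 16.6 in the KO lists. Those at Pparg (3.68 and 3.56) and Alpl (4.45 and 3.52) were intragenic, and that near an end of Krt8 (5.43 and 1.23) lay inside the neighbouring Krt78. The part of other cell types in the results was not tested. Fabp4, Adipoq, Plin1, Sp7, Bglap, Ibsp, Acan, Col2a1, Rbfox3, Gfap, Pecam1, Cdh5, Kdr, Ptprc, Csf1r, Epcam, Cdh1, Krt18 and Krt5 were called at neither end in any of the 4 lists.

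Neither set lay mainly at gene ends. A region within 1 kb of either end of a protein-coding gene was called a gene-end region, a region inside such a gene but away from its ends intragenic, and any other intergenic. Of the gained regions 367 lay at gene ends (8.38%, 95% Wilson interval 7.60 to 9.24), and of the lost regions 518 (9.86%, 9.09 to 10.7), against 9165 of the shared regions (31.0%, 30.5 to 31.5). The sets parted inside and between genes. Intragenic regions made up 54.5% of the lost set (2860 regions) and 45.1% of the gained set (1975), beside 39.6% of the shared regions. Intergenic regions made up 46.5% of the gained set (2036), 35.7% of the lost set (1874) and 29.4% of the shared regions. Intergenic gained regions also lay farther from genes, with a median distance of 56.2 kb and 754 of them (37.0%) over 100 kb away. The median was 19.5 kb for lost and 23.0 kb for shared intergenic regions, with 14.3% and 16.8% over 100 kb.

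**Figure D1:**
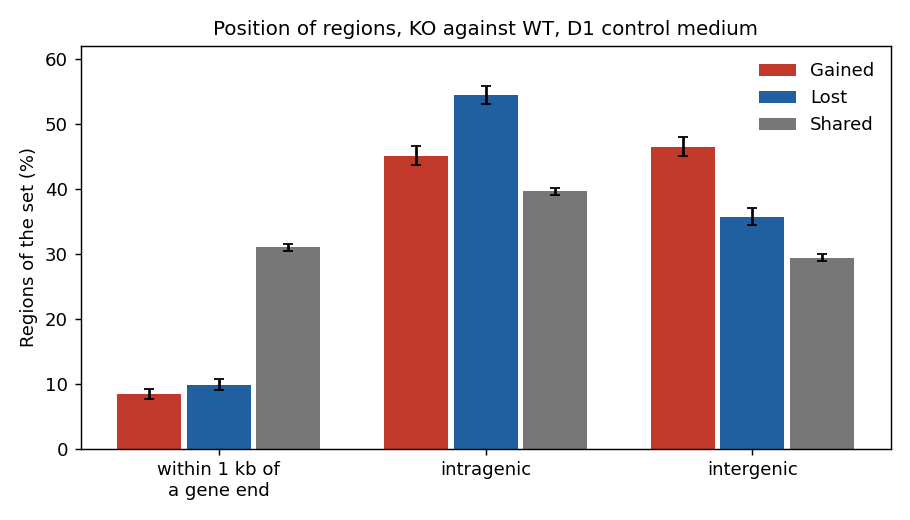
Percent of gained, lost and shared regions (vertical axis) that lay within 1 kb of a gene end, inside a gene or between genes, with bars for each set and 95% Wilson intervals as error bars. Gene ends held 8.38% of gained and 9.86% of lost regions against 31.0% of shared ones, and intergenic positions were most common among the gained regions.

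The whole lists showed little of this. Gene-end peaks made up 22.4% and 25.1% of the WT lists and 20.1% and 25.2% of the KO lists, a difference of −1.15 percentage points (exact permutation p = 1). Intragenic peaks made up 44.6% and 43.5% in WT and 42.7% and 42.0% in KO, so the groups did not overlap, and the difference of −1.70 points had the smallest p that the design allows (exact permutation p = 0.333). Intergenic peaks made up 32.9% and 31.4% in WT and 37.2% and 32.8% in KO, a difference of 2.85 points (exact permutation p = 0.667). With 2 lists a group no smaller p was possible for any of them.

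Members of both sets were narrow and weak beside shared regions. The median width was 161 bp for gained, 116 bp for lost and 325 bp for shared regions. Shared regions join peaks of 4 lists and members of the sets peaks of 2, so part of this contrast follows from the rule. The part of the rule in the contrast of strength was not tested. The median −log10 q-value, a value the authors deposited for each peak, was 6.14 in KO line 1 and 3.54 in line 2 for gained regions, and 6.29 and 3.64 in WT replicates 1 and 2 for lost regions. Shared regions had 13.9 and 9.27 in WT and 16.8 and 8.77 in KO. A value of at least 5 in both lists that held them was reached by 958 gained (21.9%) and 1477 lost regions (28.1%), against 74.8% of shared regions with that value in both WT lists. Among the regions with such values, 51.3% of the gained and 35.7% of the lost ones were intergenic, and 6.68% and 8.06% lay at gene ends. The weakest call in the gained set had a −log10 q-value of 1.13, and the weakest in the lost set 1.15. Just outside the rule, 3828 regions had the calls of a gained region apart from 1 extra call in a WT list, and 6984 those of a lost region apart from 1 in a KO list. That extra call had a median of 3.95 in the first case and 4.94 in the second, and a lowest value of 1.13 and 1.20. The sets were sensitive to a left-out list because fewer calls are then required: 7762, 8082 and 18923 regions were gained without WT replicate 1, KO line 1 and KO line 2, and 13191 and 10506 were lost without WT replicate 2 and KO line 1.

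Lost regions were frequent at muscle genes. Over all 21631 protein-coding genes, 11.2% had a lost region inside the gene or within 1 kb of an end and 8.21% a gained one. Of 20 myogenic transcription factors and cofactors, 11 had a lost and 3 a gained region. Their median length was 39.2 kb, and 16.96% of all genes between 30 and 100 kb had a lost and 11.3% a gained region. Of 41 sarcomere genes, 19 had a lost region and 2 a gained one, and of 22 genes of excitation-contraction coupling and the neuromuscular junction, 10 had a lost region and 1, Musk, a gained one. Long genes hold more regions of either set: 9.09% of genes between 10 and 30 kb long had a lost region, the class of the median sarcomere gene (20.8 kb) and the median excitation-contraction gene (19.4 kb), against 3.23% of genes under 10 kb. Counted over regions, 33 of the 150 merged regions at sarcomere genes were lost (22.0%), 17 of 110 at excitation-contraction genes (15.5%) and 15 of 122 at myogenic factors (12.3%), beside 6.60% of all regions at or inside protein-coding genes. In bulk libraries, fewer cells with an open region and less opening in each cell cannot be told apart.

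**Figure D2:**
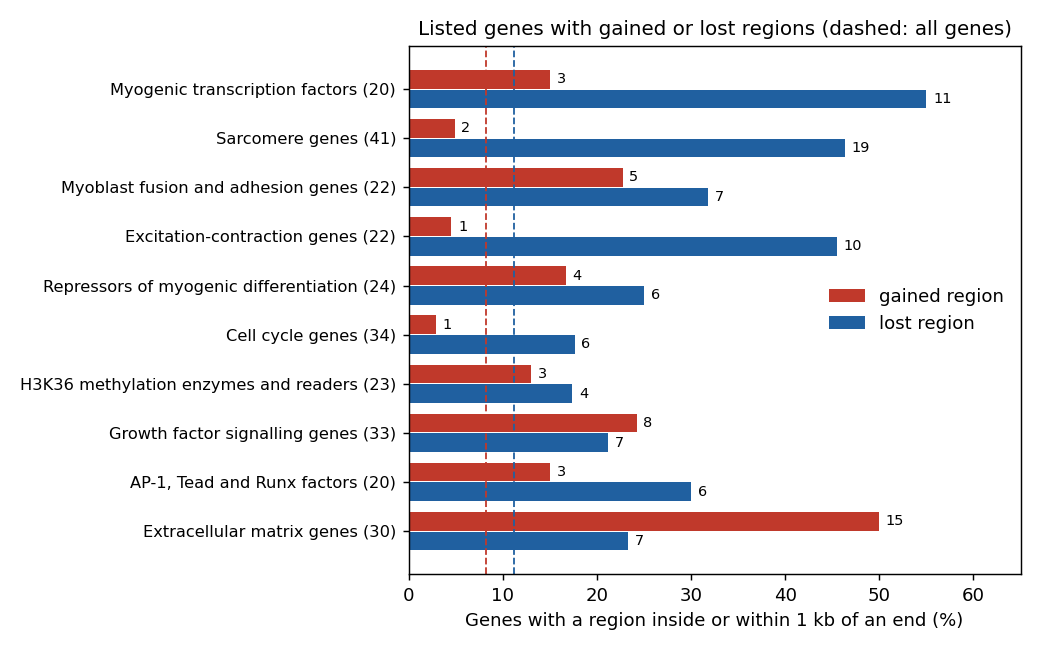
Percent of the genes of 10 lists (rows, with the number of genes in brackets) that had a gained or a lost region inside the gene or within 1 kb of an end, with the number of genes beside each bar. The dashed lines stand at 8.21% for gained and 11.2% for lost regions over all protein-coding genes, and the extracellular matrix genes and the growth factor genes were the lists with more genes under gained than under lost regions.

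Among the transcription factors, Myog, the bHLH factor that drives terminal differentiation, had 2 lost regions and no shared one. The first, chr1:134289601-134290014, covered the promoter printed above and had −log10 q-values of 8.33 and 5.10 in the WT lists. The second, chr1:134290261-134290585, began inside the gene and had values of 2.79 and 1.87. Both were also called in the 2 WT libraries of D1 MR and of D5 CTL, in no WT library of D0, and in none of the 8 KO libraries outside D1 CTL. Mef2d, a MADS-box partner of the bHLH factors, had a lost intragenic region with values of 13.5 and 9.67, beside 5 shared regions. Smyd1, a muscle methyltransferase needed for sarcomere assembly, had 2, the stronger with 16.2 and 9.48. Eya2, a transcriptional coactivator with phosphatase activity, had 2, the stronger with 15.3 and 8.46. Myod1, which commits cells to the muscle lineage, had no member of either set and 2 shared regions. Its gene-end peak had values of 15.4 and 13.5 in WT and of 6.94 and 3.66 in KO. Each value describes a peak within its own list, so a change in openness between the lists was not tested. Gained regions were found at Mef2c, Pax3 and Eya4, and the strongest of these, inside Eya4, had −log10 q-values of 23.1 and 4.29 in the KO lists and was also called in both WT libraries of D0.

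The sarcomere genes with lost regions covered the thin filament, the thick filament and the M-band. Lost regions lay at an end of 13 of the 41 genes, 31.7% of the list, while 2.51% of all genes had one there and 1.81% had a gained one. Acta1, the skeletal muscle actin, had 4 lost regions, of which that over the promoter printed above, chr8:123894665-123895045, had −log10 q-values of 5.34 and 5.61. Another of the 4 also lay within 1 kb of the neighbouring gene Nup133, and the only lost region of Tpm2, a tropomyosin, lay inside the neighbouring Car9. Actc1, the cardiac actin that is also made in early myotubes, had 1 over part of its promoter (chr2:114052712-114052988) with 5.90 and 7.49. Tnnc1, the slow troponin C, had 2, and the one 764 bp beyond the gene, chr14:31212493-31212777, had values of 19.7 and 15.04. Tnnt2, the troponin T of embryonic muscle, lost the region over its promoter (chr1:135835996-135836481, 14.4 and 9.24) but kept a gene-end peak in all 4 lists. Tnni1 and Tnni2, the slow and fast troponin I, had lost regions with up to 15.2 and 5.86 and with 7.27 and 6.47. Myh3, the embryonic myosin heavy chain, had a lost intragenic region, chr11:67081303-67081616, with 21.6 and 12.02. Mylpf, a fast myosin light chain, had one inside the gene as annotated, chr7:127210372-127210696, with 21.9 and 10.4. Myom3, an M-band protein, had 4 lost regions, with up to 9.75 and 4.76 at its start. Mybph, a myosin-binding protein, and Ckm, the muscle creatine kinase, each had a lost region over part of the promoter, with values of 6.04 and 3.64 and of 7.62 and 4.55. The remaining 22 genes had no lost region, among them Ttn, Neb, Tnnc2 and Tpm1. For Ttn, the giant elastic protein of the sarcomere, the gene-end peak had values of 20.6 and 16.02 in WT. The value was 2.17 in KO line 1, with no peak in line 2, and the difference between lists was not tested.

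The excitation-contraction genes with lost regions included channels, calcium store proteins and junction proteins. Scn4a, the skeletal muscle sodium channel, had 4 lost intragenic regions, the strongest with −log10 q-values of 14.8 and 10.1. Ryr1, the calcium release channel, had 2, and the one at its start (chr7:29124248-29124378) had 6.58 and 4.59. Cacna1s, the voltage sensor that opens it, had 1 at its promoter with 4.97 and 1.53, so its call in WT replicate 2 was near the threshold of that list. Casq2, a calcium store protein, had 1 over part of its promoter with 8.73 and 7.74. Jsrp1, a junction protein, had 3, of which one was shared with the neighbouring gene Amh. Musk, the receptor kinase of the neuromuscular junction, was the gene of this list with gained regions, 2 inside the gene with 6.31 and 7.03 and with 5.66 and 6.40 in the KO lists.

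Across the other libraries, fewer ends of these chosen muscle genes were called in KO than in WT of the same day and medium. Counting the 22 genes of the muscle lists reported here with a lost region at an end, all 22 had a gene-end peak in both WT lists and 13 in each KO list of D1 CTL, a difference that the choice of genes fixes in part. In libraries that the rule did not use, 20 had one in both WT libraries of D1 MR, against 10 and 8 in the KO lines. At D0, 13 and 14 had one in WT and 11 and 6 in KO. At D5 the WT libraries had 19 to 21, and KO line 2 had 6 in CTL and 7 in MR. KO line 1 had 0 at D5, where its lists held 644 and 1881 peaks at a background of 0.128 and 0.101 fragments per position, so its D5 libraries hold too few peaks to compare. Myog, Actc1, Mybph, Myom2, Tnnc1 and Ckm were not called at an end in any KO library of the study. Over whole lists at D1 CTL, 13 and 11 of 20 myogenic factors had a gene-end peak in WT and 13 and 11 in KO. Excitation-contraction genes had 19 and 17 of 22 against 18 and 17, and sarcomere genes 26 and 25 of 41 against 20 and 15. At D1 MR the factors had 14 and 12 against 11 and 7, and excitation-contraction genes 19 and 18 against 16 and 10. Sarcomere genes had 23 and 23 there against 17 and 13, and cell cycle genes 29 and 29 of 34 against 28 and 23. At D0 the whole lists showed no drop in KO line 1. Sarcomere genes had 14 and 17 in WT against 15 and 9 in KO, and the factors 11 and 11 against 12 and 7. Excitation-contraction genes had 16 and 16 against 16 and 8, and the D0 list of KO line 2 held 30629 peaks. The same KO lines recur in all these libraries, so they are not independent of the choice of the 22 genes.

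**Figure D3:**
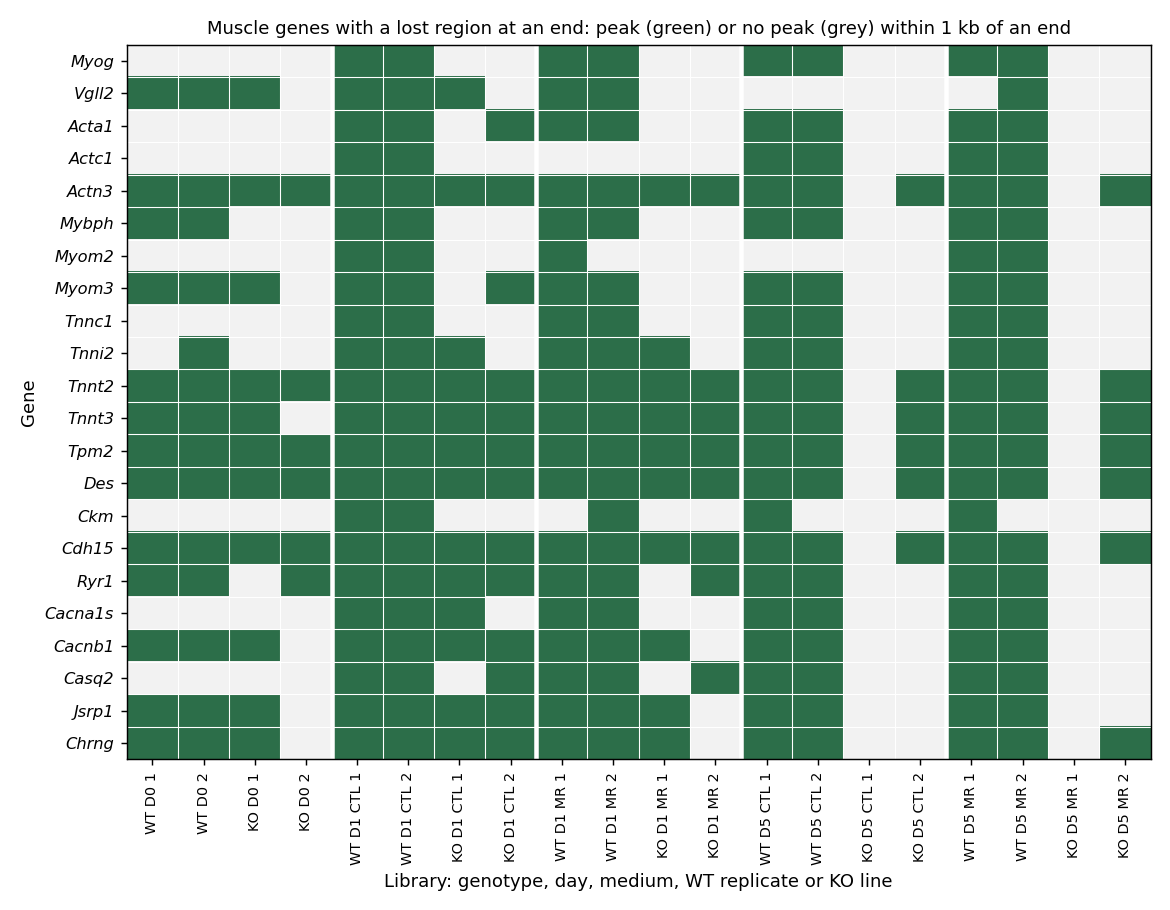
Peak calls within 1 kb of an end (green, called; grey, not called) for the 22 genes of the muscle lists reported here with a lost region at an end (rows) in each of the 20 libraries (columns, by genotype, day, medium and WT replicate or KO line). The WT libraries of D1 and D5 held 19 to 22 of the 22 genes, and the D5 libraries of KO line 1 held none.

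Fusion and adhesion genes stood in both sets. Of 22 genes, 7 had a lost and 5 a gained region, with a median gene length of 65.7 kb, and 16.96% and 11.3% of all genes between 30 and 100 kb had one. Over regions, 9 of 204 were lost (4.41%) and 7 gained (3.43%), below the 6.60% and 4.57% of all genic regions, so the members that follow are a description. Mymk, the membrane activator of myoblast fusion, had a lost intragenic region with −log10 q-values of 12.4 and 1.86. Dysf, which repairs the muscle membrane, had one of the strongest lost intragenic regions of all, chr6:84022099-84022267, with 36.04 and 27.2. It was called in all 8 WT libraries outside D1 CTL and in none of the KO ones. Cdh15, the cadherin of myoblasts, had 2 weak lost regions, with 3.32 and 1.63 and with 3.17 and 1.94, beside a gene-end peak in all 4 lists. On the gained side stood Elmo1, with 3 regions, and Dock1, with 1, which together form an exchange factor for Rac, and the adhesion molecules Vcam1 and Ncam1. Of these, the region in Dock1 had 8.40 and 5.85 in the KO lists.

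Extracellular matrix genes were the list with the most gained regions. Of 30 genes, 15 had a gained region and 7 a lost one. The median gene of the list was 66.2 kb long, and 11.3% of all genes between 30 and 100 kb had a gained region. Over regions, 21 of 251 at these genes were gained (8.37%), beside 4.57% of all regions at or inside genes. Col11a1, a fibrillar collagen chain, had one over part of its promoter (chr3:114030377-114030524) with −log10 q-values of 18.1 in KO line 1 and 5.70 in line 2. Lama4, a laminin chain of vessel and muscle basement membranes, had 2, the stronger with 25.95 and 4.75. Col6a3, a chain of the collagen that surrounds muscle fibres, had 2, with 3.15 and 10.5 and with 11.1 and 4.20. Thbs1, a matricellular protein that activates latent TGF-beta, had 3, and Col1a2 and Mmp2, a collagen I chain and a gelatinase, had 2 each. The count of 15 genes was 9 when each list was limited to the same number of its strongest peaks and 24 without KO line 2. Of the 21 gained regions, 8 were in both KO lists of D1 MR and 7 in both WT lists of D1 MR. No WT library outside D1 CTL held 10 of the 21. The stronger Lama4 region was called in 5 of those 8 WT libraries, and the Col11a1 region in none. Lost regions of this list lay at Col4a1 and Col4a2, which share a promoter region and 1 lost region there, and at Lama2, Lama5, Lamb1, Col18a1 and Timp3.

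Signalling genes stood in both sets. Of 33 growth factor genes, 8 had a gained and 7 a lost region, beside 8.21% and 11.2% of all genes, and the median gene of the list was 39.9 kb long. Over regions, 15 of 221 were gained (6.79%) and 13 lost (5.88%), beside 4.57% and 6.60% of all genic regions, so the lost share was near the background and the members below are given as a description. The gained side held members of the TGF-beta family and its transducers. Tgfbr3, the accessory receptor betaglycan, had 4 gained regions, the strongest with −log10 q-values of 9.51 and 10.6 (chr5:107166743-107168029). Tgfb2, a ligand, had 1 with 18.5 and 7.65. Smad3, which carries the signal to the nucleus, had 2, with 14.05 and 2.54 and with 3.14 and 6.85, and Smad7, the inhibitor, had 2, the stronger with 12.7 and 6.27. Several of these regions were also open in WT cells at other days or in MR. Of the 8 WT libraries outside D1 CTL, 7 held the first Smad3 region and 6 the stronger Smad7 region. The Tgfb2 region was in 5 of them and the strongest Tgfbr3 region in 2. Of the 15 gained regions of the list, 7 were in both WT lists of D1 MR and 10 in both KO lists. Bmp4 and Fgf2 had 1 each, and Igfbp4, a binding protein of the insulin-like growth factors, had 2. The lost side held Fgfr1 and Met, receptors of growth factors that keep myoblasts dividing, with 2 and 1 lost regions, and genes of the insulin-like growth factor system. Igf2r, the receptor that clears Igf2, had 4 lost regions, the strongest with 23.3 and 14.1, and Igf1, Igfbp5 and Insr had 1, 1 and 2. Igf1r had 2 of each, and the strongest, a lost one, had 26.5 and 13.9. At the 24 repressors of differentiation, 10 of 125 regions were lost (8.0%) and 6 gained (4.8%), near the shares of all genic regions. Among them, Notch2 had 2 gained regions, the stronger with 26.1 and 13.7, while Notch1 and Notch3 had 2 lost regions each. The stronger Notch2 region was also called in 5 of the 8 WT libraries outside D1 CTL. Zeb2, a zinc finger repressor, had 2 gained regions and 1 lost. At the 20 AP-1, Tead and Runx genes, 13 of 176 regions were lost (7.39%) and 3 gained (1.70%), the lost share again near the background. Tead4, a cofactor-dependent regulator of muscle genes, had 3 lost regions, the strongest with 19.1 and 12.7. Runx2 had 3 lost and 1 gained, and Yap1, the coactivator of Tead factors, had a gained region over part of its promoter with 7.38 and 2.92.

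Cell cycle genes and the genes of lysine 36 methylation also held lost regions. Of 34 cell cycle genes, 6 had a lost (17.6%) and 1 a gained region (2.94%), beside 11.2% and 8.21% of all genes. Their median length was 14.1 kb, and 9.09% of all genes between 10 and 30 kb had a lost region. Over regions, 11 of 97 were lost (11.3%) and 2 gained (2.06%), beside 6.60% and 4.57% of all genic regions. Of the 11 lost ones, Ccnd3 and Cdkn1a, both on chromosome 17, held 5 and 1. Ccnd3, the D-type cyclin that stays on in differentiating muscle, had 5 lost regions, the strongest, chr17:47521666-47522163, with −log10 q-values of 27.2 and 19.7. E2f1, an S-phase activator, had an intragenic one with 31.9 and 19.4, and Cdkn1a, the inhibitor p21, had one with 3.73 and 2.12. Of 23 enzymes and readers of lysine 36 methylation, 4 had a lost (17.4%) and 3 a gained region. The median gene of this list was 43.6 kb long. Of all genes between 30 and 100 kb, 16.96% had a lost region, so by gene the list was near its length class. Over regions, 11 of 89 were lost (12.4%), beside 6.60% of all genic regions. Of these 11, Kdm4b on chromosome 17 and Dnmt3a on chromosome 12 held 5 and 4. Dnmt3a, a DNA methyltransferase with a domain that reads the mark, had 4 lost regions, with up to 16.3 and 11.6. Kdm4b, a demethylase, had 5, with up to 10.1 and 5.18. Ash1l and Smyd2, both methyltransferases, each had a gained one, with 22.1 and 6.30 and with 11.5 and 4.35.

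The strongest single regions were largely outside these lists. At gene ends, the strongest gained region lay 564 bp from Syt1, a calcium sensor of vesicle release, with −log10 q-values of 40.1 and 16.6 (chr10:109011544-109011760). A second gained region overlapped 178 bases of the Syt1 promoter printed above, with 40.8 and 8.87. Syt1 is one of the 7 neural markers and had 4 gained regions in all. The other 4 were at Negr1, a neuronal adhesion protein (19.4 and 14.2), Ctla2b, a protease inhibitor (30.2 and 11.7), Cracr2a (31.0 and 10.6) and Ptgfr, the prostaglandin F receptor (17.8 and 10.3). Inside genes, the strongest gained regions included those in Cngb3 (43.9 and 22.6), Pde3a (54.6 and 19.4), Cracr2a (29.7 and 19.6) and Gas7 (27.5 and 15.99). Between genes, the nearest genes were Fstl5, Slit3, Hao1, Rnf152 and Cdc7, at distances of 17.4 to 365 kb. Those nearest to Hao1 (62.6 and 22.9), Rnf152 (71.9 and 22.4) and Cdc7 were called in all 4 KO libraries of D0 and D1 MR and in none of the WT ones. That nearest to Slit3 was called in all 4 WT libraries of D0 and D1 MR, and that nearest to Fstl5 in 1 of each. The region in Cngb3 was called in both WT libraries of D1 MR, and those at Negr1 and Ptgfr in 1.

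Among the lost regions, the strongest at a gene end lay 77 bp from Mdga1 (chr17:29827692-29827879) with −log10 q-values of 43.3 and 41.6. It was followed by those at Fgf23, a phosphate-regulating hormone (29.0 and 22.9), Pla2g4f (42.9 and 16.9), Rgs16, a regulator of G-protein signalling (20.2 and 16.7), and Rnf113a2, which lies inside Bbof1 (29.2 and 15.2). Inside genes, the strongest lay in Tbc1d22a (42.3 and 32.5), Eipr1 (35.6 and 34.4), Dysf, Fat3 (32.8 and 25.3) and Setd3, the actin histidine methyltransferase (37.3 and 23.7). The strongest intergenic ones had Ywhaq, Cela3a, Rgs8, Gk2 and Tcf7l2 as nearest genes, at 2.54 to 171 kb. All 15 were called in both WT libraries of D1 MR.

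Some genes held many members. Sorcs2, a sorting receptor, had 15 lost regions beside 20 shared ones, Ccdc88c 13, Ralgps1 11, and Anks1 and Btbd9 8 each. None of these genes had a gained region. Counted by length, Ccdc88c had 11.03 lost regions per 100 kb, the densest of those named, and Btbd9 2.18. On the gained side, Anks1b had 7, and Nrp2, a semaphorin and VEGF receptor, Gas7, Aff3, Rarb, a retinoic acid receptor, and Arhgap24 had 6 each. None of these had a lost region. Anks1b is 1100 kb long and had 0.636 gained regions per 100 kb, while Nrp2 had 5.20.

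Members were unevenly spread over chromosomes, and some of the gene counts above move with that. Chromosome 17 had the highest share of lost regions, 9.42% of its 3504 merged regions, and the lowest of gained ones, 2.63%. Chromosome 12 had 9.05% lost and 3.79% gained, and chromosome 10 had 8.65% and 5.16%. Chromosome 3 was the reverse, with 4.49% lost and 8.11% gained. The lists themselves moved in the same way: chromosome 17 held 4.70% and 4.78% of the WT peaks and 4.22% and 3.79% of the KO peaks, lowest in line 2. Chromosome 12 held 3.97% and 4.003% in WT, 3.26% in KO line 1 and 3.90% in line 2. Whether the lines differ in chromosome number, and what part that has in the sets, was not tested. Of the genes named here, Ccnd3, Cdkn1a, Kdm4b, Igf2r, Mdga1, Anks1, Btbd9, Notch3 and Runx2 lie on chromosome 17, and Ccdc88c, Dnmt3a, Eipr1, Lamb1, Rnf113a2, Setd3 and Ywhaq on chromosome 12. Without both chromosomes, 4650 lost and 4172 gained regions remained, at gene-end shares of 9.94% and 8.46%, and 18 sarcomere, 10 excitation-contraction and 9 myogenic factor genes had a lost region.

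**Figure D4:**
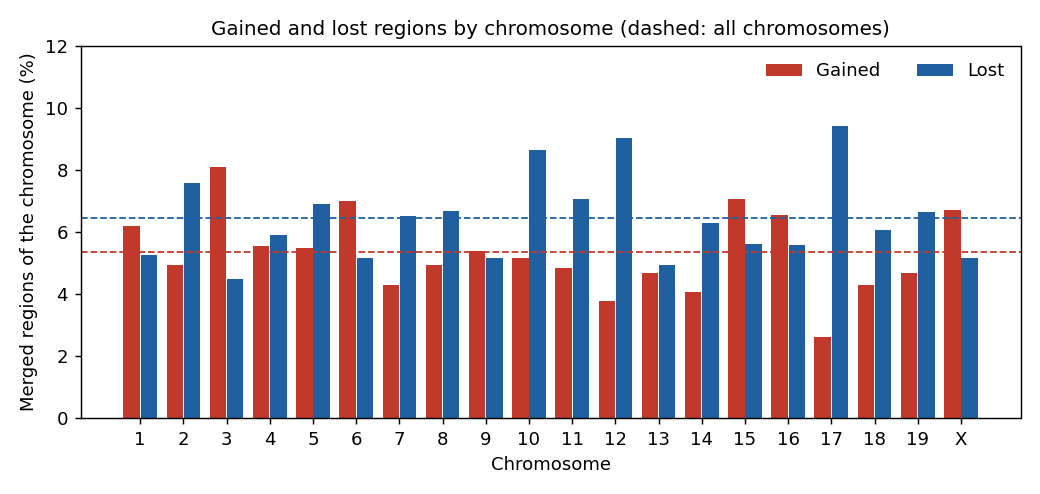
Percent of the merged regions of each chromosome (vertical axis) that were gained or lost, with dashed lines at 5.37% and 6.44%, the shares over all chromosomes. Chromosomes 17, 12 and 10 had the highest lost shares, 9.42%, 9.05% and 8.65%, and chromosome 3 had the highest gained share, 8.11%.

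The sets were then followed in the 16 libraries that the rule did not use. At D1 MR, lost regions were called in 80.4% and 67.6% of cases in the WT libraries and in 3.8% and 3.3% in the KO lines, so the groups did not overlap. Of them, 3109 (59.2%) had the same pattern of calls at D1 MR, both WT lists and neither KO list, and 0 the reverse. Shared regions were called there in 99.4% and 98.2% of cases in WT and in 93.0% and 82.2% in KO, and 1132 of them (3.83%) had the calls of a lost region against 23 with the reverse. The KO lists of D1 MR were also shorter, with 48460 and 35201 peaks against 69881 and 57676 in WT, and the part of list length in these shares was not tested. At D0 the shares were 36.4% and 44.3% in WT and 11.4% and 1.6% in KO. Shared regions, which all 4 lists held, were called at D0 in 94.03% and 96.8% in WT and in 96.6% and 76.8% in KO, so KO line 2 had the lowest share of that set too. At D0, 2653 lost regions (50.5%) were in no WT list of D0 and 1642 (31.3%) in both, and 1282 (24.4%) had the calls of a lost region. A pattern of no WT call at D0, both WT lists at D1 MR and no KO list of either was shown by 1168 lost regions (22.2%), against 18 gained (0.411%) and 34 shared ones (0.115%). The split at D0 did not separate positions: 9.88% of the lost regions in no WT D0 list and 9.32% of those in both lay at gene ends, and 54.8% and 53.8% were intragenic. At the sarcomere genes, 20 of the 33 lost regions were in no WT list of D0, 22 were in both WT lists of D1 MR, and 32 were in no KO list of D1 MR.

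Gained regions were called in KO line 1 in 87.4% of cases at D0 and 73.2% at D1 MR, and in line 2 in 39.8% and 52.8%. In WT they were called in 15.6% and 30.3% at D0 and in 48.8% and 33.9% at D1 MR. Both KO lists and neither WT list held 909 gained regions (20.8%) at D0 and 760 (17.4%) at D1 MR, where 156 had the reverse calls. A total of 363 (8.29%) were in all 4 KO lists of D0 and D1 MR and in no WT list of them. Those in both KO lists of D0 (1654 regions) lay at gene ends in 6.47% and between genes in 49.4% of cases. The KO lines are the same at each day, so these libraries are not independent of the lists that chose the regions. At D5 in CTL, gained regions were called in 2.3% and 1.4% of cases in WT and in 44.8% in KO line 2, and lost regions in 13.1% and 11.4% in WT and 1.2% in line 2. The line 1 libraries of D5, with 644 and 1881 peaks, held at most 0.5% of either set.

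**Figure D5:**
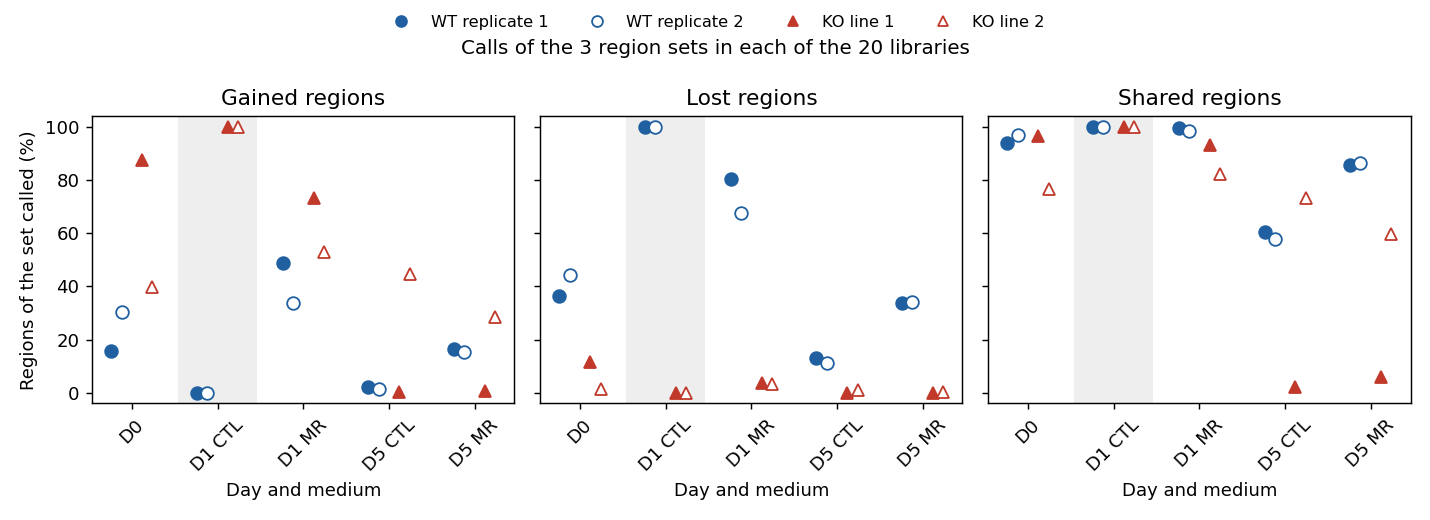
Percent of the gained, lost and shared regions (3 panels) called in each of the 20 libraries, by day and medium, with circles for WT replicates and triangles for KO lines, and grey shading over the 4 lists that chose the regions. Outside the shading, lost regions were called in 67.6% to 80.4% in WT and 3.3% to 3.8% in KO at D1 MR, while gained regions in WT reached 48.8%.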

How the data were processed

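Each library of the study has 1 deposited peak list in broadPeak layout, and the 4 lists of D1 in control medium were compared. In these lists the authors deposited for each peak a score, its fold over background as a ratio, and its significance as −log10 of a p-value and of a q-value. Peaks were called per library. The build GRCm38 is named in the submitters' processing notes, while the aligner, filters and peak caller are not given in the sources used here. The deposited −log10 values were used to rank, filter or describe peaks within their own list, and the score was used in no result.

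Peaks were merged at 1 bp overlap with Python 3.11.15 (numpy 2.4.6, pandas 2.3.3, scipy 1.17.1, figures with matplotlib 3.10.9). Regions were placed against 21631 protein-coding genes of a RefSeq table of GRCm38.p6, with gene ends as windows of 1 kb. Depth was read from the background pileup, solved from the fold and p-value of the commonest peak under an assumed Poisson formula. It is not a read total, and counting intervals cover counting error only. The 4 whole-list values were compared by exact two-sided permutation over 6 arrangements, and the sets were described without a test. The merging step was tested on simulated data.

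Promoters were the 250 bases before a RefSeq start, from 17274 genes. Named regions were the 5 strongest per set and position class by the lower percentile of their 2 q-values, named genes were the 6 with most regions per set, and any gene of the 10 lists and 6 marker lists could be named. The members and lists were chosen with earlier results of these data known. The alternatives tried were stricter peaks, equal list lengths, 50% coverage, joining within 200 bp, 2 kb gene ends and each list left out, and, chosen after seeing the data, no chromosomes 12 and 17 and all settings for the gene lists and promoters. Some genes that this rule names are not reported here, though counts over lists and regions include them, apart from the counts of muscle gene ends by library.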

Additional observations from a re-analysis of the deposited data

How the results depend on the processing

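No paired analysis was possible because the KO libraries come from 2 lines that carry the same replicate number, so the groups share no pair. With 1 list left out at a time, the KO minus WT difference in log2 peaks ranged from −0.17 to 0.23, in the gene-end share from −3.71 to 1.40 points, in the intragenic share from −2.28 to −1.12 and in the intergenic share from 0.617 to 5.09. The first changed sign without WT replicate 2 (−0.173) or KO line 1 (−0.166), and the second without the same lists (0.205 and 1.40), so neither has a stable direction. Gained regions numbered 4829 to 18923 and lost regions 6078 to 13191, since fewer calls are required. Gene-end shares ranged from 7.56% to 11.8% (gained) and from 10.1% to 11.1% (lost), and intragenic shares from 44.6% to 45.8% and from 51.8% to 54.6%. Myogenic factor genes with a lost region numbered 11 to 14, sarcomere genes 20 to 28, excitation-contraction genes 10 to 12, and extracellular matrix genes with a gained region 16 to 24. The CAGCTG share ranged from 21.5% to 36.6%.

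Of the gained regions 66.6% were still gained, and of the lost 86.6% still lost, where peaks had to cover 50% of a region, and the gained gene-end share was then 12.9%. With gene ends of 2 kb the gene-end shares were 12.7% (gained) and 15.4% (lost) and the intragenic shares 42.4% and 50.95%. With equal list lengths, 9 extracellular matrix genes had a gained region, and 68.8% of gained and 73.8% of lost regions were kept. The cause of these moves beyond the wider window was not tested. Calls are limited by depth: a region without a peak in KO line 2, at a background of 2.30, is not shown to be closed.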
